A study of Mus musculus with 32 samples.

Results

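The transcripts described here were 7 of the 13 mRNAs encoded by the mitochondrial genome: *mt-Nd1*, *mt-Nd2*, *mt-Nd4*, *mt-Nd5* and *mt-Nd6*, *mt-Co1*, and *mt-Cytb*. They were chosen as the mitochondrial mRNAs whose counts were not lost to a near-identical copy of the mitochondrial genome in nuclear DNA. They were 7 of 53700 genes in the count table, and all 7 were among the 13961 genes abundant enough to be tested. In every kidney they took a large part of the library, between 6.08% and 8.51% of all gene counts.

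Mitochondria carry their own small circular genome, which is transcribed by a dedicated RNA polymerase into long RNAs that span many genes of one strand. These RNAs are cut into separate mRNAs, rRNAs and tRNAs, many of which are polyadenylated and kept stable by RNA-binding proteins made from nuclear genes. Transcripts that start out together can therefore reach different levels. The proteins made from these mRNAs form the core of the respiratory chain, and their partner subunits come from the nucleus. The kidney tubule, and the proximal tubule above all, is rich in mitochondria because salt and solute transport runs on their ATP.

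RNA was sequenced from 32 kidneys of male C57BL/6 mice of the iKspCre-Pkd1del line, 1 library per kidney. The mRNA was isolated with oligo-dT beads, so a count, also of an rRNA, depends on capture by a poly(A) tail as well as on abundance. Every mouse, controls included, belonged to this line, in which a kidney-specific, tamoxifen-inducible Cre can remove exons of *Pkd1* lying between LoxP sites. *Pkd1* encodes polycystin-1, the protein most often mutated in autosomal dominant polycystic kidney disease. The 12 PKD kidneys and the 12 PKD + Salsalate kidneys came from mice that received tamoxifen (150 mg/kg) at postnatal days 18 and 19, and both groups are labelled 95 days old. The PKD + Salsalate mice ate chow with 2.5 g/kg salsalate, a salicylate drug that activates AMP-activated protein kinase, for 2 weeks from day 81. The 8 wildtype kidneys came from mice that received no tamoxifen and are labelled 109 days old, so that age, tamoxifen and the *Pkd1* deletion cannot be told apart in any comparison with them. The Cre acts in tubular epithelium, whereas a whole kidney also holds vessels, stroma and immune cells. In such bulk RNA, fewer cells of a type and less RNA per cell cannot be told apart. Nothing in the labels says that 2 kidneys came from 1 mouse, and p-values measure the spread between kidneys.

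The count of *Pkd1* did not check the deletion, because it covers the whole gene and not only the floxed exons. It stood at 68.7 ± 10.9 CPM (the count scaled to the size of its library; SD, n = 8) in wildtype kidneys and 92.1 ± 15.1 CPM (n = 12) in PKD kidneys, a log2 fold change of 0.42 ± 0.11 (SE, adjusted p = 0.00134, edgeR quasi-likelihood test). Against the 2 sets of wildtype libraries described later it was 0.54 (adjusted p = 0.000317, 5 libraries with names ending in R) and 0.24 (adjusted p = 0.197, the other 3).

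One feature of the nuclear genome decided which mitochondrial mRNAs could be counted. Bases 6390 to 11042 of the 16299-base mitochondrial genome aligned to chr1:24650616-24655269 (GRCm39, minus strand) over 4654 columns at 99.936% identity. The copy differed at only 2 bases and 1 gap. With the mitochondrial base first, then its position, then the nuclear base, these were A6393T in *mt-Co1* and T9461C in *mt-Nd3*. Reads from this stretch match both places, and the authors' counts use uniquely placed reads. *mt-Co2*, *mt-Atp8*, *mt-Atp6*, *mt-Co3*, *mt-Nd3* and *mt-Nd4l*, the 6 mRNAs left out, lie wholly inside it. All but 2 of the 7 transcripts lay wholly outside it. *mt-Co1* (chrM 5328 to 6872, plus strand) had its last 483 of 1545 bp inside, and *mt-Nd4* (10167 to 11544, plus strand) its first 876 of 1378 bp. For these 2, uniquely placed reads can come mostly from the part outside, and their levels are the least certain of the 7. The edges of the copy are shown because they set which part of each gene was countable, with the bases inside the aligned copy in capitals. All 4 sequences are from GRCm39 and are written in the sense of *mt-Co1* and *mt-Nd4*. The mitochondrial windows are bases 6350 to 6429 and 11003 to 11082, and the nuclear ones are chr1:24655230-24655309 and chr1:24650576-24650655, both on the minus strand.
mt-Co1, where the copy starts: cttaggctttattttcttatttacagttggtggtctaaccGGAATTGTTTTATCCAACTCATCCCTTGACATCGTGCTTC
chr1, the same edge: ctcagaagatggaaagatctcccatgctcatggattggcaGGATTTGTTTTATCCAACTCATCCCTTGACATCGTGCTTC
mt-Nd4, where the copy ends: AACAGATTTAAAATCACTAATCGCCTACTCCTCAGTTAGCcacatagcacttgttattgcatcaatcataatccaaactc
chr1, the same edge: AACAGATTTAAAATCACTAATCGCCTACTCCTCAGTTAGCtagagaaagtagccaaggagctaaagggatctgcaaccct

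At the *mt-Co1* edge 39 of 40 bases in capitals were identical, the exception being A6393T, and at the *mt-Nd4* edge 40 of 40 were. Beyond these edges the alignment ended. The next 2 copies by length were on chromosome 2, at 97.362% over bases 4441 to 7699, and on chromosome 4, at 93.009% over bases 12488 to 15359. Shorter copies could be closer, such as 129 columns with 0 mismatches on chromosome 2, over bases 11514 to 11642, which reach into the end of *mt-Nd4*. Of all 100-base windows of each gene, 60.75% of *mt-Nd4*, 30.84% of *mt-Co1* and 3.195% of *mt-Nd2* also occurred letter for letter in the nuclear genome, and none of the other 4 transcripts did.

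The remaining transcripts lay at chrM 2751 to 3707 (*mt-Nd1*, 957 bp), 3914 to 4951 (*mt-Nd2*, 1038 bp), 11742 to 13565 (*mt-Nd5*, 1824 bp), 13552 to 14070 (*mt-Nd6*, 519 bp) and 14145 to 15288 (*mt-Cytb*, 1144 bp). *mt-Nd6* is the only one read from the minus strand, and its 3′ end overlaps that of *mt-Nd5* by 14 bases, shown in capitals in the plus-strand window 13519 to 13598. The libraries kept strand, so reads in these shared bases could be assigned to one gene or the other.
mt-Nd5 and mt-Nd6, shared bases: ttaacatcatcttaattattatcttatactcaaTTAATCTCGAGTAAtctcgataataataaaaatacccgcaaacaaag

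Counting was deep for all but one of these mRNAs. Libraries held between 11193136 and 109807664 gene counts. The lowest library count was 53031 for *mt-Nd5* and 201866 for *mt-Cytb*, against 891 for *mt-Nd6*, so counting error was small beside the spread between kidneys.

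The wildtype libraries fell into 2 sets, which bears on every comparison with wildtype. Of the 8, 5 had library names ending in R (replicates 1 to 5) and 3 did not (replicates 6 to 8), and the labels do not say what the letter marks. No library of the PKD groups carried it. The 7 transcripts together took 7.13% ± 0.50 (SD, n = 5) of counts in the R libraries and 7.83% ± 0.42 (n = 3) in the others. The mitochondrial rRNAs stood apart: *mt-Rnr1* and *mt-Rnr2* together took 2.89% to 5.08% of counts in the R libraries and 0.599% to 0.900% in the other wildtype libraries. The range was 0.525% to 1.65% in PKD and 0.770% to 1.59% in PKD + Salsalate kidneys. Alignments on no annotated feature were also more frequent, 14.2% ± 0.95 in the R libraries against 8.90% ± 1.15 in the others. The R libraries were shallower, with 11278382 to 16473782 counts against 17011675 to 28290874. The tests of the 7 transcripts against wildtype are therefore given with all 8, with the 5 and with the 3, and the counts over gene lists by set.

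**Figure D1:**
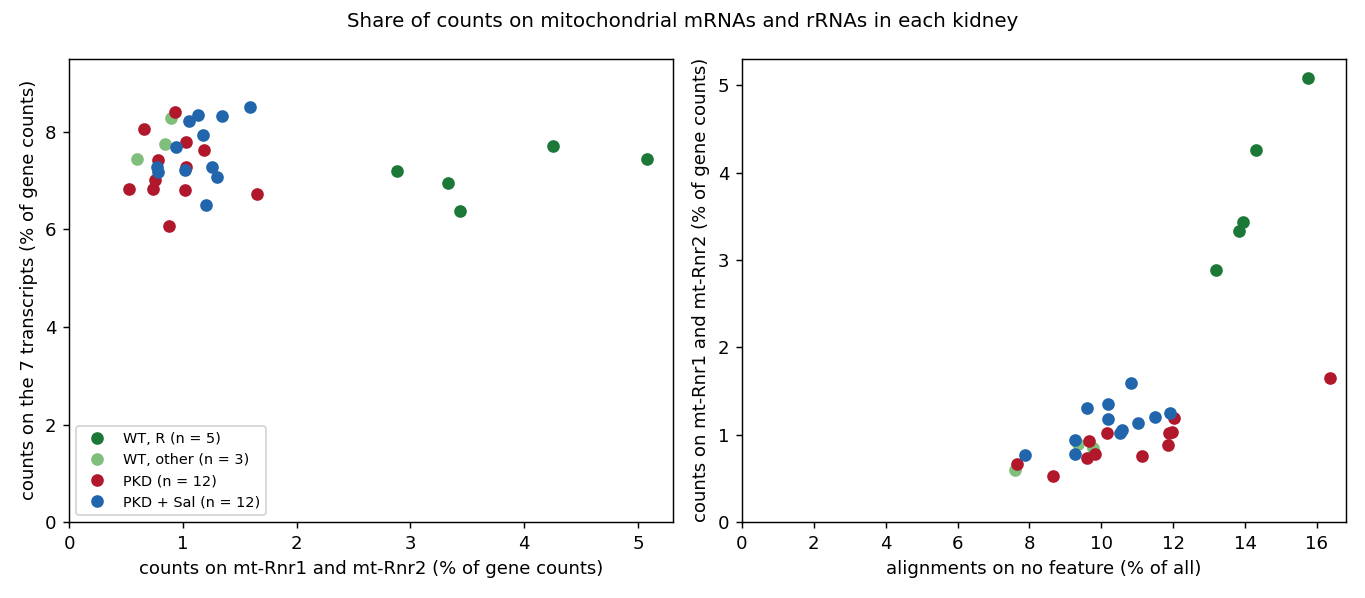
Share of counts in each of the 32 kidneys. Left, counts on the 7 mRNAs against counts on both mitochondrial rRNAs, as a percentage of gene counts; right, the rRNA share against the percentage of alignments on no feature. The 5 wildtype libraries ending in R are the only ones above 2.88% on the rRNAs, while their share on the 7 mRNAs lies within the range of the other groups.

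The 7 transcripts spanned a wide range of levels. Per kilobase of sequence outside the nuclear copy, the mean wildtype level was 20966 CPM for *mt-Nd4*, 19803 for *mt-Co1* and 17077 for *mt-Cytb*. It was 13660 for *mt-Nd1*, 6980 for *mt-Nd2* and 3610 for *mt-Nd5*. *mt-Nd6*, the minus-strand mRNA, was far lower at 252 CPM per kilobase. The part of oligo-dT capture in these levels was not tested. *mt-Cytb* was above *mt-Nd1*, *mt-Nd1* above *mt-Nd2*, *mt-Nd2* above *mt-Nd5* and *mt-Nd5* above *mt-Nd6* in 32 of 32 kidneys. The order of the top members was less settled: *mt-Co1* was above *mt-Nd4* in 26 of 32 kidneys and *mt-Nd4* above *mt-Cytb* in 24. In PKD kidneys the same quantity was 16553 for *mt-Nd4*, 19091 for *mt-Co1*, 15878 for *mt-Cytb*, 11153 for *mt-Nd1*, 6207 for *mt-Nd2*, 3951 for *mt-Nd5* and 194 for *mt-Nd6*. The places of *mt-Nd4* and *mt-Co1* in these orders rest on the divisor, 502 bp and 1062 bp outside the copy. Per kilobase of the whole gene, the wildtype mean was 7638 CPM for *mt-Nd4* and 13612 for *mt-Co1*. Both values were below that of *mt-Cytb* (17077), and *mt-Nd4* was also well below *mt-Nd1* (13660). The 6 mRNAs wholly inside the copy kept between 1.03 (*mt-Atp8*) and 168 (*mt-Co2*) CPM per kilobase in wildtype kidneys, so few reads were counted there. Reads that cross the edges of the copy were not measured, so the exact countable length of *mt-Nd4* and *mt-Co1* is not known.

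**Figure D2:**
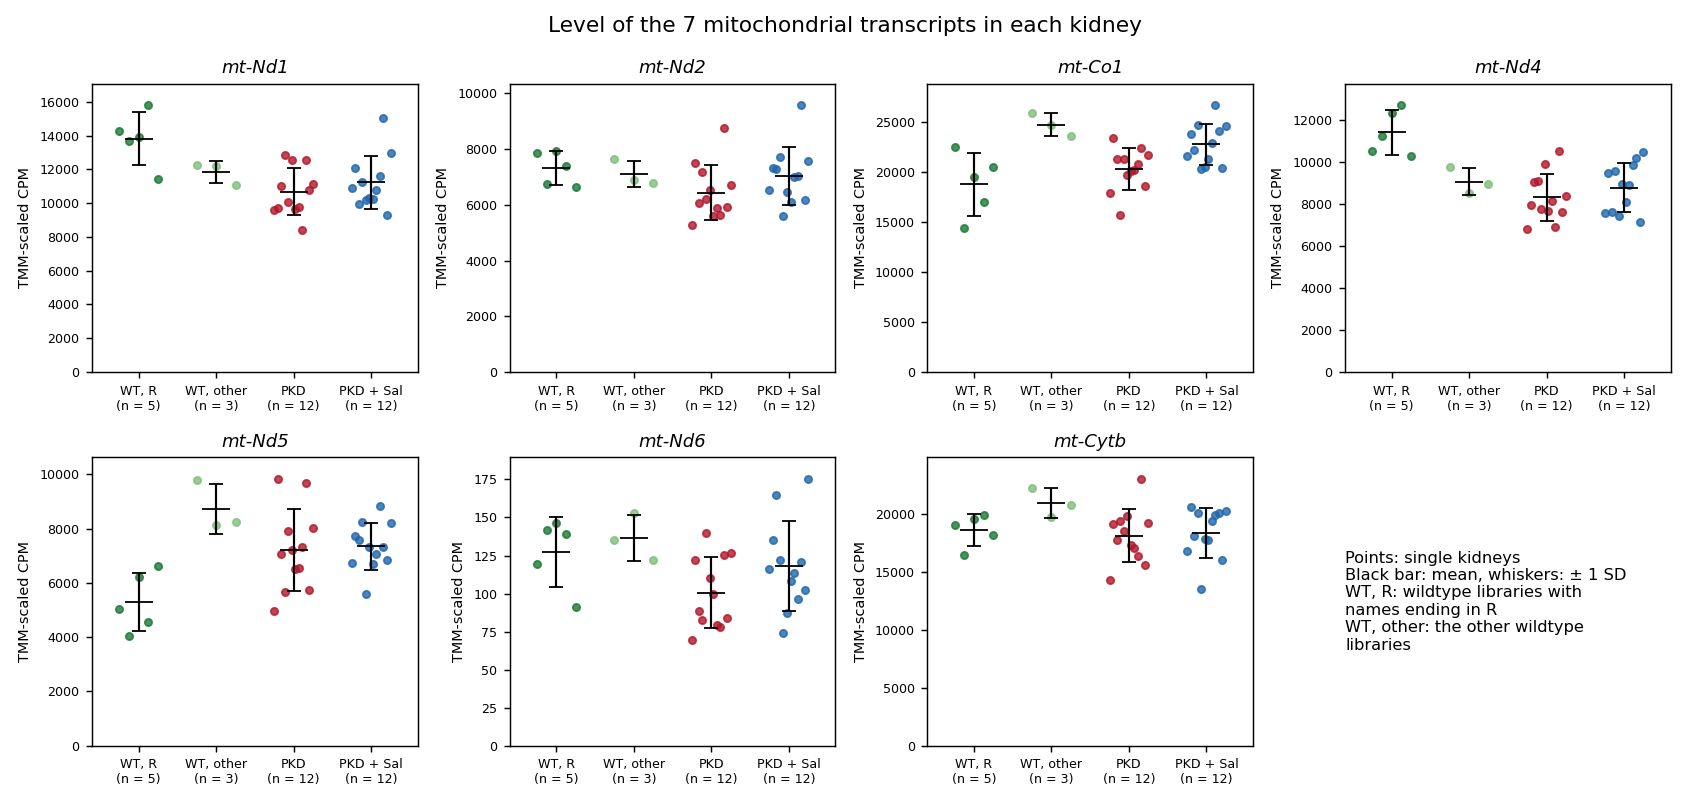
Level of each of the 7 transcripts in every kidney, in TMM-scaled CPM on a linear axis from 0, for wildtype libraries ending in R, the other wildtype libraries, PKD and PKD + Salsalate (points, kidneys; bars, mean ± 1 SD). *mt-Nd5* is lower and *mt-Nd4* higher in the R libraries than in the other wildtype libraries, without overlap.

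The first comparison asked how mitochondrial mRNA levels differed between PKD and wildtype kidneys. With all 8 wildtype libraries, *mt-Nd1*, *mt-Nd4* and *mt-Nd6*, which encode membrane subunits of complex I, were lower in PKD kidneys, with log2 fold changes between -0.38 and -0.29. *mt-Nd2* and *mt-Nd5*, also complex I subunits, did not pass the test, nor did *mt-Co1*, the catalytic subunit of complex IV, or *mt-Cytb*, the cytochrome of complex III. Thus 3 of 7 transcripts passed, beside 49.1% of all genes tested, a share of the members close to the background. The median log2 fold change of the 7 was -0.17, and that of all genes tested -0.01.

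*mt-Nd1* stood at 14252, 13661, 13936, 15808 and 11443 CPM in the R libraries and at 12251, 12167 and 11064 CPM in the other wildtype libraries. In PKD kidneys it ran from 8409 through a median of 10399 to 12876 CPM. The groups overlapped, with 8 of 12 PKD kidneys below the lowest wildtype kidney. The log2 fold change was -0.29 ± 0.09 (SE, adjusted p = 0.00707, edgeR) with all wildtype libraries, and -0.37 (adjusted p = 0.00190) with the R libraries. With the other 3 it was -0.16 (adjusted p = 0.301).

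*mt-Nd4* passed and missed the test in the same fits. It stood at 10519, 11215, 12309, 12705 and 10259 CPM in the R libraries, at 9741, 8511 and 8941 CPM in the others, and ran from 6803 through 8038 to 10500 CPM in PKD kidneys. Of the 12 PKD kidneys, 11 were below the lowest R library, and 8 below the lowest of all 8 wildtype libraries. The log2 fold change was -0.34 ± 0.09 (adjusted p = 0.00261), -0.46 (adjusted p = 0.000194) with the R libraries and -0.13 (adjusted p = 0.384) with the others.

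*mt-Nd6*, the scarcest of the 7, stood at 119.3, 141.5, 146.6, 139.4 and 90.9 CPM in the R libraries and at 134.9, 152.6 and 122.0 CPM in the others. PKD kidneys ran from 69.3 through a median of 94.1 to 139.8 CPM, and 6 of 12 were below the lowest wildtype kidney. Unlike the 2 before it, *mt-Nd6* had a difference of like size against both wildtype sets. The log2 fold change was -0.38 ± 0.14 (adjusted p = 0.0222, edgeR) with all 8, -0.34 (adjusted p = 0.0696) with the 5 and -0.45 (adjusted p = 0.0619) with the 3. Neither of the smaller fits passed the test.

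*mt-Nd5* changed sign with the wildtype set. It stood at 5022, 4058, 6204, 4573 and 6620 CPM in the R libraries and at 9801, 8150 and 8244 CPM in the others, with PKD kidneys between 4961 and 9836 CPM around a median of 7143. Against the R libraries it was higher in PKD kidneys by a log2 fold change of 0.44 (adjusted p = 0.00466), with 7 of 12 PKD kidneys above the highest R library. Against the others the value was -0.29 (adjusted p = 0.110), and with all 8 it was 0.13 ± 0.14 (adjusted p = 0.437).

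*mt-Co1* passed the test only against the 3 other wildtype libraries. These stood at 25891, 24745 and 23619 CPM, the R libraries at 22490, 14416, 19553, 16998 and 20533 CPM, and PKD kidneys ran from 15726 through 20492 to 23424 CPM. All 12 PKD kidneys were below all 3 of the other wildtype kidneys, a log2 fold change of -0.30 (adjusted p = 0.0119, edgeR). Against the R libraries the value was 0.11 (adjusted p = 0.319), and with all 8 it was -0.05 ± 0.09 (adjusted p = 0.646).

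*mt-Nd2* and *mt-Cytb* passed in none of the 3 fits. *mt-Nd2* averaged 7245 ± 537 CPM (SD, n = 8) in wildtype and 6443 ± 983 CPM (n = 12) in PKD kidneys, a log2 fold change of -0.17 (95% interval -0.34 to 0.004). With 1 kidney left out, *mt-Nd2* was called in 1 of 20 fits, the one without PKD replicate 10 (-0.22, adjusted p = 0.0289, edgeR). *mt-Cytb* averaged 19536 ± 1715 CPM and 18165 ± 2294 CPM, a log2 fold change of -0.10 (95% interval -0.27 to 0.06).

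By wildtype set, then, 3 of 7 transcripts passed against the R libraries (*mt-Nd1* and *mt-Nd4* lower, *mt-Nd5* higher), beside 59.6% of all genes. Against the other wildtype libraries 1 of 7 passed (*mt-Co1*, lower), beside 40.8%. No transcript passed against both sets, although all 7 differences from the 3 other wildtype libraries were negative, with a median of -0.22 against 0.00 over all genes.

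**Figure D3:**
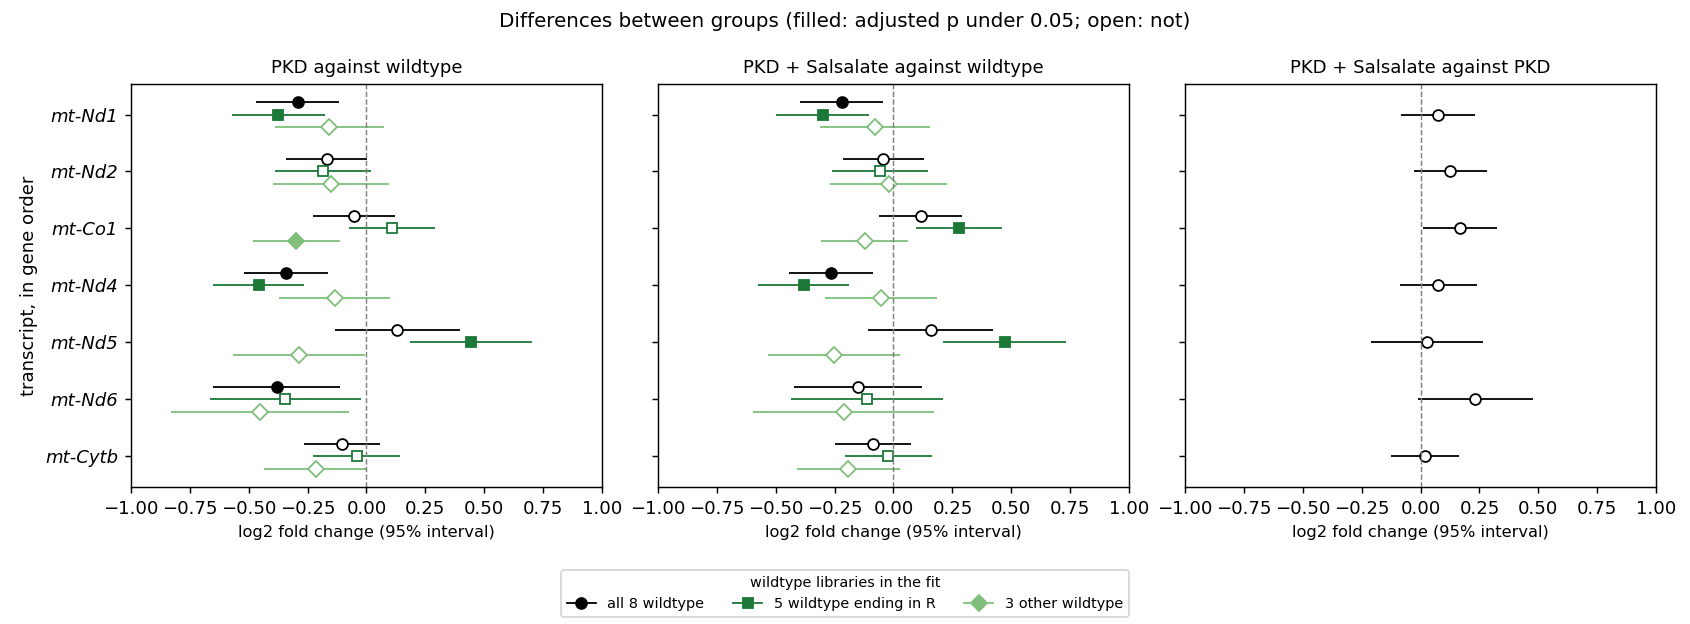
Log2 fold change of each transcript in 3 comparisons, with lines for the 95% interval; filled symbols have an adjusted p under 0.05. Circles use all 8 wildtype libraries, squares the 5 ending in R and diamonds the other 3: for *mt-Nd5* the squares and diamonds lie on opposite sides of 0 in both comparisons with wildtype, and no symbol is filled in PKD + Salsalate against PKD.

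The wildtype sets were compared directly, since they share genotype, age label and treatment. *mt-Co1* was lower in the R libraries (log2 fold change -0.40 ± 0.12, adjusted p = 0.00716, edgeR), as was *mt-Nd5* (-0.72 ± 0.17, adjusted p = 0.000821), and *mt-Nd4* was higher by 0.33 ± 0.14 (adjusted p = 0.0423). Those 3 of 7 stand beside 48.1% of all genes that passed between the sets. *mt-Nd1* (0.22), *mt-Nd2* (0.04), *mt-Nd6* (-0.10) and *mt-Cytb* (-0.17) did not pass. The widest of these values, -0.72, was larger in size than the widest between PKD and all wildtype kidneys, -0.38. Library depth, the rRNA share and the share of alignments on no feature moved with the sets, and their part in the result was not tested.

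Dividing each transcript by *mt-Cytb* of the same kidney gives the balance among the mRNAs, free of library scaling. The *mt-Nd4* to *mt-Cytb* ratio averaged 0.612 in the R libraries, 0.432 in the other wildtype libraries, 0.458 in PKD and 0.477 in PKD + Salsalate kidneys. The lowest R library, at 0.550, was above the highest PKD kidney, at 0.508. The *mt-Nd1* ratio averaged 0.741, 0.565, 0.590 and 0.612 in the same order, and the *mt-Nd5* ratio 0.284, 0.416, 0.395 and 0.400. For each of these 3 the mean of the other wildtype libraries was nearer to the PKD mean than to that of the R libraries.

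The *mt-Co1* ratio averaged 1.01 in the R libraries, 1.18 in the other wildtype libraries, 1.13 in PKD and 1.25 in PKD + Salsalate kidneys. The *mt-Nd2* ratio averaged 0.392, 0.339, 0.354 and 0.383, and the *mt-Nd6* ratio 0.0069, 0.0065, 0.0055 and 0.0064. Over the 18 tests of 6 ratios in 3 comparisons, 1 passed: *mt-Co1* in PKD + Salsalate against wildtype, higher by 0.23 on the log2 scale (two-sided exact permutation test, p = 0.00163, adjusted over the 18 tests p = 0.0293). In PKD against wildtype the lowest p was 0.0156, for *mt-Nd4* (exact permutation test, adjusted p = 0.0620). With the R libraries as the only wildtype, 10 of 18 ratios passed. Of these 8 were comparisons with wildtype, and the other 2, *mt-Nd2* and *mt-Co1* in PKD + Salsalate against PKD, hold no wildtype library and passed because the p-values adjusted together had changed. With the other 3 wildtype libraries none of the 18 passed. In that last setting 3 kidneys stand on the wildtype side, and the differences in PKD were 0.06 for *mt-Nd1*, 0.08 for *mt-Nd4* and -0.08 for *mt-Nd5*.

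**Figure D4:**
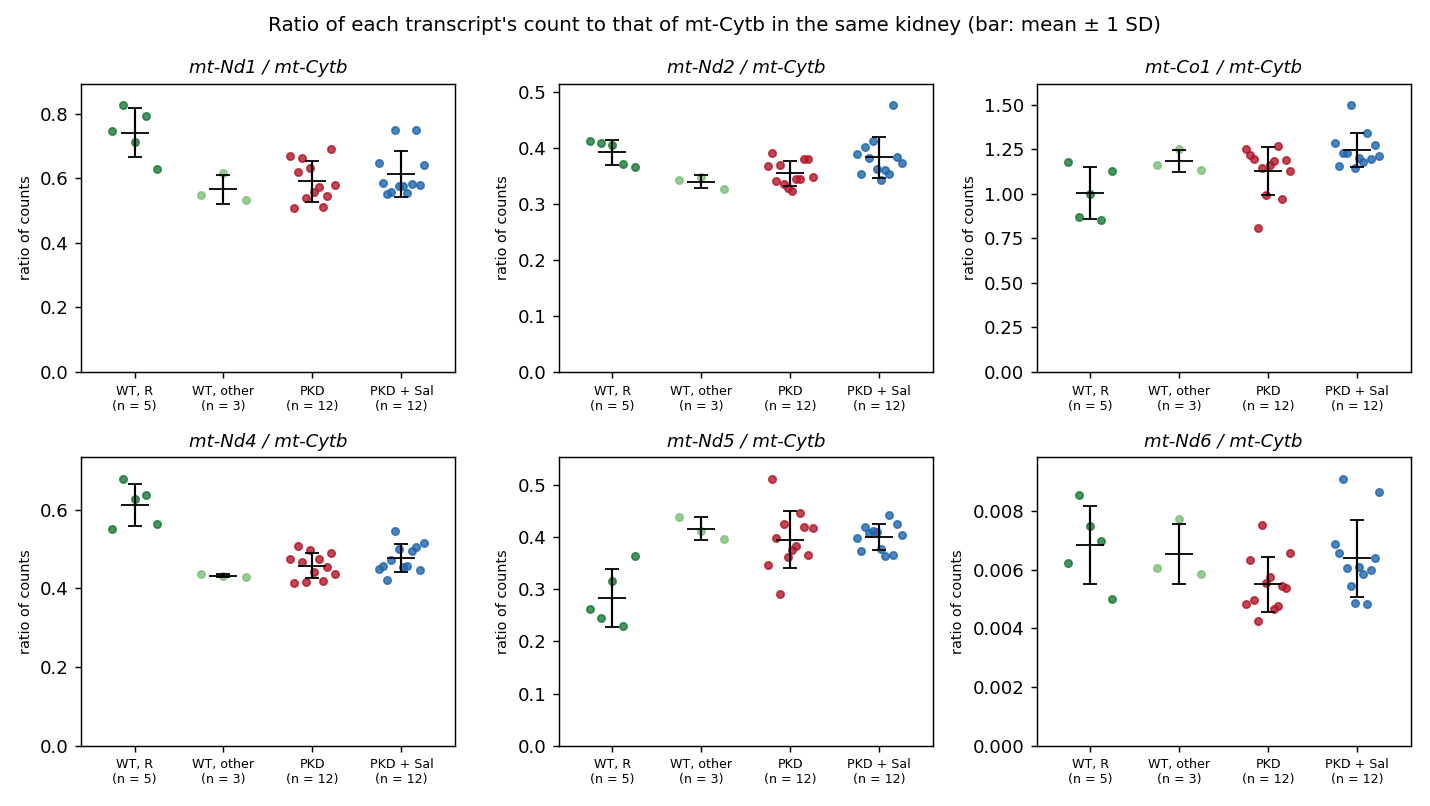
Count of 6 transcripts divided by the count of *mt-Cytb* in the same kidney, on linear axes from 0 (points, kidneys; bars, mean ± 1 SD). For *mt-Nd4* the R libraries lie wholly above the PKD kidneys, while the 3 other wildtype libraries, near 0.43, lie among them.

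The second comparison asked whether salsalate shifted these transcripts in PKD kidneys. No transcript passed the test (0 of 7, and 1 of 7 at an unadjusted p under 0.05, edgeR), beside 0.580% of all genes, or 81 of 13961. All 7 differences were positive but small. *mt-Co1* averaged 20274 ± 2104 CPM (SD, n = 12) in PKD and 22788 ± 2041 CPM (n = 12) in PKD + Salsalate kidneys, a log2 fold change of 0.17 (95% interval 0.01 to 0.33, adjusted p = 0.461), and 10 of 12 treated kidneys were above the PKD median. *mt-Nd6* averaged 100.5 ± 23.4 CPM and 118 ± 29.4 CPM, a log2 fold change of 0.23 (95% interval -0.01 to 0.48, adjusted p = 0.550), with 10 of 12 above the PKD median. *mt-Nd2*, with 10 of 12 as well, differed by 0.13 (95% interval -0.03 to 0.28).

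For the other 4 the intervals were -0.08 to 0.23 for *mt-Nd1*, -0.09 to 0.24 for *mt-Nd4*, -0.21 to 0.26 for *mt-Nd5* and -0.13 to 0.16 for *mt-Cytb*. Between 6 and 8 of 12 treated kidneys were above the PKD median for each of them. The ratios to *mt-Cytb* gave an unadjusted p under 0.05 for *mt-Nd2* (p = 0.0207, permutation test) and *mt-Co1* (p = 0.0152, permutation test), neither of which passed after adjustment over the 18 with all wildtype libraries (adjusted p = 0.0620 for both).

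PKD + Salsalate kidneys were also set against wildtype, a comparison that shares its wildtype libraries with the first. *mt-Nd1* (log2 fold change -0.22, adjusted p = 0.0431) and *mt-Nd4* (-0.26, adjusted p = 0.0185) were lower, 2 of 7 beside 44.9% of all genes. The call of *mt-Nd1* was made in 9 of 20 fits that left out 1 kidney, with an adjusted p up to 0.119 (without wildtype replicate 4), and that of *mt-Nd4* in 19 of 20. Treated kidneys held 9295 to 15059 CPM of *mt-Nd1* around a median of 10838, and 7145 to 10469 CPM of *mt-Nd4* around 8921. *mt-Nd6*, at -0.15 (adjusted p = 0.394), did not pass. Against the R libraries 4 of 7 passed, beside 58.0%: *mt-Nd1* (-0.30) and *mt-Nd4* (-0.38) lower, *mt-Co1* (0.28) and *mt-Nd5* (0.47) higher. For *mt-Nd5*, 11 of 12 treated kidneys were above the highest R library, and for *mt-Nd4* 11 of 12 were below the lowest. Against the other 3 wildtype libraries none of the 7 passed (0 at an unadjusted p under 0.05), beside 34.9%, with values from -0.25 for *mt-Nd5* to -0.02 for *mt-Nd2*.

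Within groups the 7 transcripts did not vary as one. Over the 32 kidneys, taking deviations of log2 CPM from the means of the 4 sets, Pearson's r was 0.83 between *mt-Nd1* and *mt-Nd4*, 0.83 between *mt-Nd2* and *mt-Cytb* and 0.82 between *mt-Nd4* and *mt-Cytb*. *mt-Co1* went with *mt-Nd5* (0.79), while *mt-Nd1* had 0.08 with both of these. These values are descriptions, since all transcripts of a kidney share its library and scaling.

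The rest of the mitochondrial transcriptome was read from what the table still counts. *mt-Rnr1* and *mt-Rnr2*, the rRNAs of the mitochondrial ribosome, were lower in PKD than in wildtype kidneys, with log2 fold changes of -2.13 (adjusted p = 5.64e-07, edgeR) and -1.36 (adjusted p = 7.46e-05). *mt-Rnr1* stood at 23835, 13276, 18349, 14288 and 11697 CPM in the R libraries and at 3126, 2073 and 3011 CPM in the other wildtype libraries. Against the other wildtype libraries the values were -0.10 (adjusted p = 0.761) for *mt-Rnr1* and 0.27 (adjusted p = 0.399) for *mt-Rnr2*, so the difference rested on the R libraries. Of the mRNAs inside the nuclear copy, *mt-Co2* fell from 115 to 78.6 CPM (adjusted p = 0.000810), *mt-Co3* from 97.0 to 67.2 (adjusted p = 0.0368) and *mt-Nd3* from 5.29 to 2.99 (adjusted p = 0.00136). *mt-Atp6*, at 107 and 72.2 CPM, did not pass (adjusted p = 0.148). Against the 3 other wildtype libraries none of these 4 passed, with -0.35 for *mt-Co2*, -0.27 for *mt-Co3*, 0.04 for *mt-Nd3* and -0.02 for *mt-Atp6*. In PKD + Salsalate against PKD none of the 4 passed either. The values were 0.66 for *mt-Co3* (adjusted p = 0.0990, edgeR), 0.64 for *mt-Atp6*, 0.31 for *mt-Co2* and -0.07 for *mt-Nd3*. Single treated kidneys stood high, with *mt-Atp6* up to 409 CPM against a treated median of 63.7, and *mt-Co2* up to 203 against 90.2. *mt-Atp8* (0 to 13 counts per library) and *mt-Nd4l* (0 to 75) were too scarce to test. These levels are what is left after reads matching both genomes were dropped, and pseudogenes of the copy such as *Atp6-ps* held a median of 1907 counts per library.

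The nuclear genes of mitochondrial RNA were next. Of 10 genes of mitochondrial transcription, 1 was lower in PKD kidneys with all wildtype libraries, *Mterf2* (-0.24, adjusted p = 0.0220), and none was higher, beside 49.1% of all genes. Against the R libraries 1 was higher and 1 lower (59.6% of all genes), and against the others 1 was lower (40.8%). *Tfam*, which packages mitochondrial DNA and starts its transcription, differed by 0.05, and *Tefm*, the elongation factor, by 0.04. *Tfb2m*, which opens the promoter, differed by -0.04, and none of the 3 passed. *Polrmt*, the mitochondrial RNA polymerase, showed 0.02 with all 8, but it was higher against the R libraries (0.36, adjusted p = 0.000138) and lower against the others (-0.41, adjusted p = 0.000112).

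Of 19 genes of RNA processing, stability and decay, 8 were lower and 1 higher, a share close to the 49.1% of all genes. Against the R libraries 9 were lower and 1 higher (59.6% of all genes), and against the others 4 were lower and 1 higher (40.8%). *Fastk*, a mitochondrial RNA-binding protein whose short form is known to maintain *mt-Nd6* mRNA, was lower (log2 fold change -0.43, adjusted p = 1.54e-07), with -0.47 against the R libraries and -0.36 against the others. *Slirp*, the partner of *Lrpprc* in stabilising mitochondrial mRNAs, was lower (-0.30, adjusted p = 0.0248), with -0.04 (adjusted p = 0.830) against the other 3 wildtype libraries, while *Lrpprc* itself differed by 0.03. The mitochondrial poly(A) polymerase *Mtpap* (-0.13, adjusted p = 0.0602) and the exoribonuclease *Pnpt1* (-0.03) did not pass. *Fastkd3* was higher by 0.27 with all 8. *Angel2* was lower with all 8 (-0.38) but showed 0.07 (adjusted p = 0.586) against the other 3.

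Of 9 genes of mitochondrial DNA replication, 3 were lower and 1 higher, again close to the 49.1% of all genes. Against the R libraries (59.6% of all genes) and against the others (40.8%), 2 were lower and none higher. *Top1mt*, the mitochondrial topoisomerase, was lower (-0.34, adjusted p = 2.22e-06) and passed with both wildtype sets. *Twnk*, the helicase, was lower (-0.17, adjusted p = 0.00851), as was *Ssbp1*, the single-strand binding protein (-0.23), which showed 0.07 (adjusted p = 0.524) against the other 3 wildtype libraries. The polymerase *Polg* differed by 0.02, and *Exog* was higher by 0.30. *Top1mt* was also the only gene of these lists called in PKD + Salsalate against PKD, at 0.19 (adjusted p = 0.0474).

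Of 11 regulators of mitochondrial biogenesis, 6 were lower and 2 higher, beside 49.1% of all genes. The counts were the same against the R libraries, beside 59.6%. Against the others 3 were lower and 1 higher, beside 40.8% of all genes. *Perm1*, a muscle-enriched coregulator of oxidative genes, was lower (-1.82 ± 0.15, SE, adjusted p = 5.85e-12), with -1.90 and -1.70 against the R and the other wildtype libraries. The estrogen-related receptors *Esrrb* (-0.57) and *Esrra* (-0.30), which switch on respiratory chain genes, were lower against both sets. *Ppargc1a*, the coactivator PGC-1α, was lower (-0.33, adjusted p = 0.00262), with -0.50 against the R libraries and -0.01 against the others. *Nrf1* differed by 0.13 (adjusted p = 0.109), and the PGC-1-related coactivator *Pprc1* was higher by 0.37.

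The nuclear-encoded subunits of complexes I, III and IV are the protein partners of these mRNAs. Of 56, 44 were lower and none higher in PKD kidneys, beside 49.1% of all genes called, with a median log2 fold change of -0.35 against -0.01 over all genes. The median was -0.41 (42 lower, 1 higher, beside 59.6% of all genes) against the R libraries. Against the others it was -0.18, and the 15 lower and none higher were a smaller share than the 40.8% of all genes. Between the wildtype sets themselves 23 were higher and 4 lower in the R libraries, close to the 48.1% of all genes. *Ndufb9*, a complex I subunit, was lower with all 8 wildtype libraries (-1.96) and showed -0.38 (adjusted p = 0.256) against the other 3. *Uqcr11*, of complex III, was lower with all 8 (-1.20) and showed -0.32 (adjusted p = 0.270) against the other 3. In PKD + Salsalate against PKD none of the 56 passed.

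Within complex I the mitochondrial and nuclear sides were set against each other. The 5 mitochondrial mRNAs summed to 37558 CPM in wildtype, 32733 in PKD and 34482 in PKD + Salsalate kidneys, and the 36 nuclear subunits to 6745, 4949 and 5354 CPM. The ratio of these sums was 5.68 ± 0.83 (SD, n = 8), 6.70 ± 1.19 (n = 12) and 6.45 ± 0.56 (n = 12). It averaged 5.26 in the R libraries and 6.38 in the other wildtype libraries, so the wildtype sets differed here as well.

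**Figure D5:**
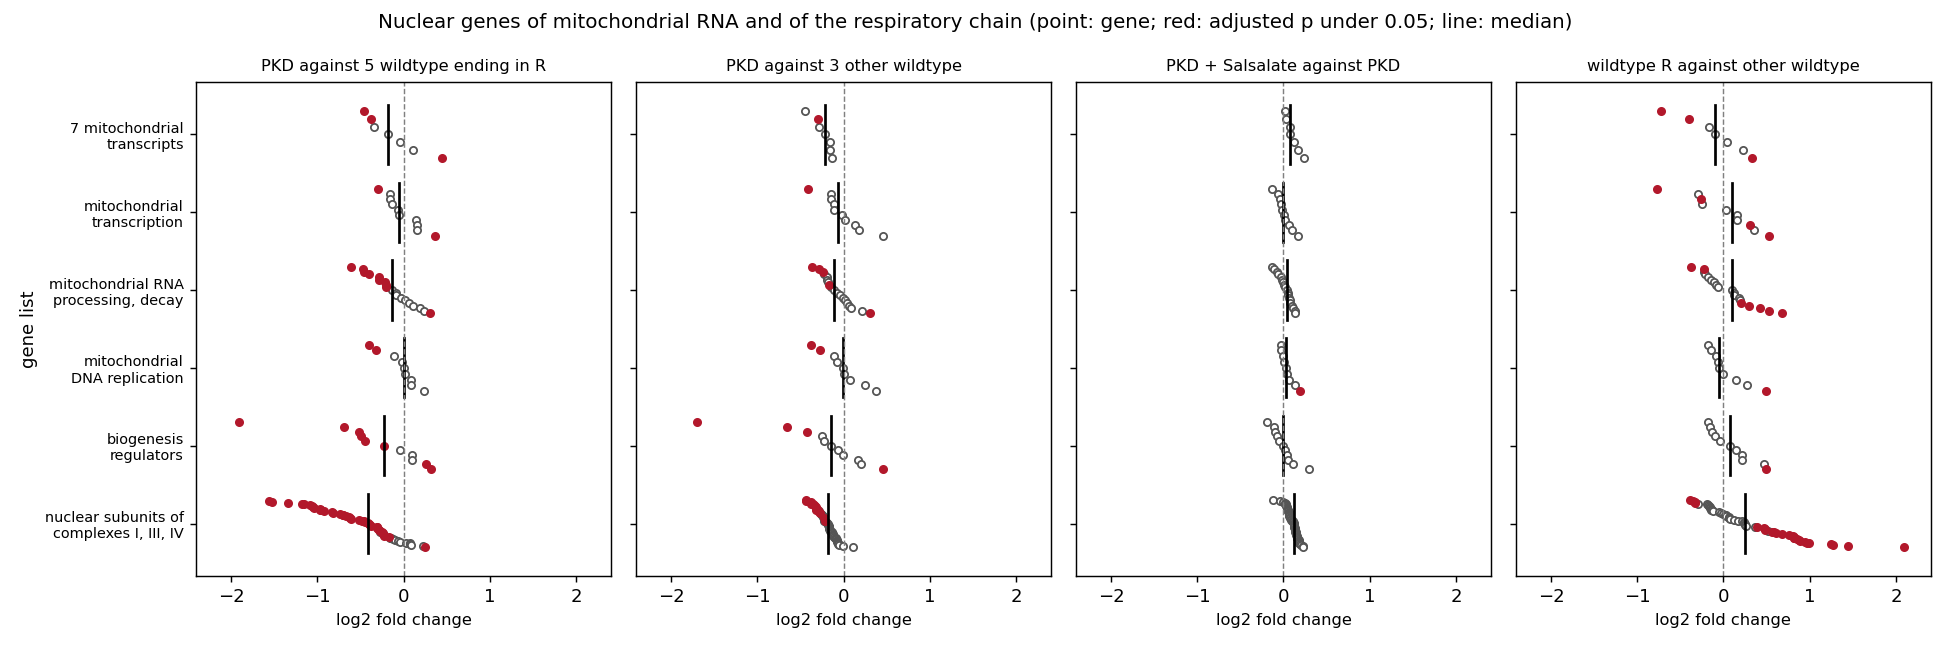
Log2 fold change of the 7 transcripts and of the genes in 5 nuclear lists in 4 comparisons (points, genes; red, adjusted p under 0.05; line, median). The nuclear subunits lie mostly left of 0 against both wildtype sets and right of 0 in R against other wildtype libraries, and 1 gene is red in PKD + Salsalate against PKD.

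Many cell type markers differed between PKD and wildtype kidneys, which may touch the differences from wildtype above. In PKD against wildtype 49.1% of all genes passed, against the R libraries 59.6% and against the others 40.8%. The counts of proximal tubule and collecting duct markers with all wildtype libraries were close to the first share. Of 7 fibroblast and matrix markers 7 were higher in PKD kidneys (5 against the R libraries, 6 against the others). So were 7 of 8 leukocyte markers (7 of 7 tested against each set), while 1 was lower with all wildtype libraries. Of 6 tubular injury markers 6 were higher (6 against each set), with *Havcr1*, the injury molecule KIM-1, higher by 5.90 on the log2 scale. Of 10 proximal tubule markers 2 were higher (*Lrp2*, 0.58) and 3 lower (*Miox*, -0.73) with all wildtype libraries, 7 higher and 1 lower against the R libraries, and 0 higher and 6 lower against the others. The 10 summed to 10130 to 13406 CPM in the R libraries, 17357 to 20220 CPM in the other wildtype libraries, 11695 to 15376 CPM in PKD and 11079 to 14398 CPM in PKD + Salsalate kidneys, so the 3 other wildtype libraries stood highest. The fibroblast and matrix markers summed to 326 to 476 CPM in wildtype, 724 to 1256 CPM in PKD and 692 to 1588 CPM in PKD + Salsalate kidneys. Of 8 markers of the thick ascending limb and distal convoluted tubule 5 were lower (*Calb1*, -1.56), with 2 higher and 5 lower against the R libraries and 7 lower against the others. Of 9 collecting duct markers 4 were lower, with 4 higher and 4 lower against the R libraries and 1 higher and 5 lower against the others. Of 5 red cell transcripts 5 were lower, as against each set. Of 8 liver transcripts 6 were higher (5 against the R libraries, 2 against the others), and the sum of the list reached 4334 CPM in 1 PKD kidney (replicate 10) against a PKD median of 139. In PKD + Salsalate against PKD no listed marker passed apart from 1 liver transcript, which was lower, beside 0.580% of all genes. None of the listed markers was at 0 in all kidneys. *Malat1* and *Neat1*, which stay in the nucleus, differed by 0.06 and 0.05 without passing. The part of these markers in the mitochondrial results was not tested.

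The nuclear genes whose levels followed the 7 transcripts most closely were found over the 32 kidneys, from the mean of the 7 log2 CPM values as deviations from the means of the 4 sets, among 13394 genes. The highest Pearson's r was 0.70 for *Tmem126a*, a complex I assembly factor, followed by 0.69 for *Katna1*, 0.69 for *4931406C07Rik*, 0.67 for *Pno1* and 0.66 for *Mttp*. The lowest was -0.78 for *Tie1*, an endothelial receptor, followed by *Pitpnm1* (-0.70), *Mapkapk3* (-0.70), *Galnt12* (-0.69) and *Trafd1* (-0.68). These are the extremes of 13394 correlations, they carry no p-value, and values of this size can arise by chance among so many. PKD replicate 10, the kidney highest in liver transcripts, also had the largest share of counts on the 7 among PKD kidneys (8.41%). The part of that kidney in these correlations was not tested. Of these 10 genes 9 were found again when mitochondrial genes were left out of the library totals. That repeat used the same kidneys, so it bears only on the scaling. *Mttp* (0.50, adjusted p = 0.000226) and *Galnt12* (0.41, adjusted p = 0.0114) differed between PKD and wildtype kidneys, and none of the 10 did between PKD + Salsalate and PKD.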

How the data were processed

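Kidney mRNA was isolated with oligo-dT beads and sequenced with a strand-keeping library kit. Per the submitters' processing notes, the authors used bcl2fastq 2.20, FastQC, cutadapt 2.10, STAR 2.7.5a and HTSeq 0.12.4 with GRCm39, and deposited raw read counts per gene as 1 table of 53700 genes. Alignments on several places were not counted, which lowers genes with nuclear copies. Identifiers were matched to GENCODE annotation (52610 of 53700).

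Nuclear copies were found by aligning the mitochondrial genome to GRCm39 with blastn 2.17.0 (alignments of 100 bp or more). Genes with log2 CPM over 1 in at least 25% of 32 kidneys were kept (13961). edgeR 4.0.16 (R 4.3.3) with TMM scaling fitted all groups together by the quasi-likelihood test, with Benjamini-Hochberg adjustment over all genes tested and a threshold of 0.05. CPM values are TMM-scaled. Fits with 1 wildtype set used that set and both PKD groups, and the wildtype sets were compared in a fit of 4 groups. The 95% intervals of log2 fold changes were made from the SE under a normal distribution. Log2 ratios to *mt-Cytb* were compared by two-sided permutation tests, exact where a group had under 10 kidneys and with 100000 permutations otherwise.

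On simulated counts for PKD against wildtype (13852 genes) the test called 80 of 100 genes changed by 0.5 and 97 of 98 changed by 1 on the log2 scale, with 9 false calls. Unlike the data, the simulation held no difference between the wildtype sets, and most genes were left unchanged. No change smaller than 0.5 was simulated, so recovery of changes of the size called for the 7 transcripts was not measured. Alternatives were other scalings, filters and tools (DESeq2 1.42.0, limma 3.58.1), a replicate block, and leaving out each kidney. The transcripts and gene lists were chosen with earlier results of these data known. Named were the 7 transcripts, the other mitochondrial mRNAs and rRNAs, *Pkd1*, a fixed set of regulators, in each list the 2 genes with the largest rise and the 2 with the largest fall among those called, and the 5 genes most and the 5 least like the 7. Of the marker lists the text gives counts and only some of the genes the rule names.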

Additional observations from a re-analysis of the deposited data

Results flagged for a closer look

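Between the wildtype libraries ending in R and the other wildtype libraries, 6 mitochondrial transcripts differed in a direct test (edgeR, adjusted p under 0.05), so that the effect of PKD or of PKD + Salsalate on each of them differs by this amount with the wildtype set used. The log2 fold changes were 2.57 for *mt-Rnr1*, 2.12 for *mt-Rnr2*, 1.25 for *mt-Nd3*, 0.33 for *mt-Nd4*, -0.40 for *mt-Co1* and -0.72 for *mt-Nd5*. In 34 checks of the wildtype group and of its R libraries, no kidney stood apart, where chance gives about 1 in 20. Groups of 12 and of 3 kidneys (PKD, PKD + Salsalate and the other wildtype libraries) are outside the sizes checked.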

How the results depend on the processing

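With all wildtype libraries, *mt-Nd1*, *mt-Nd4* and *mt-Nd6* stayed lower in PKD kidneys, and called, with each single kidney left out in turn (20 of 20), at -0.32 to -0.25, -0.38 to -0.30 and -0.44 to -0.34. The number of the 7 called in PKD against wildtype ranged from 3 to 4 in these fits. It was 1 with no filter on low counts and 1 with the 3 other wildtype libraries. Without PKD replicate 10 it was 4, with *mt-Nd2* called as well (-0.22, adjusted p = 0.0289, edgeR). *mt-Nd6* was not called with total counts only (-0.27, adjusted p = 0.0860). Total counts moved the median of all genes by 0.11 in PKD against wildtype, and the share of calls that were higher from 49.1% to 70.1%.

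In PKD + Salsalate against wildtype the number called, 2, became 1 with upper-quartile factors, 0 with total counts only, 0 with no filter, 1 with only the 2 groups compared, 4 with the R libraries and 0 with the others. It ranged from 0 to 2 when 1 kidney was left out, with 0 without wildtype replicate 4. *mt-Nd1* stayed negative there (-0.27 to -0.18) but was called in 9 of 20 of these fits, and it was not called in 5 of 12 other settings. It stayed at 0 in PKD + Salsalate against PKD, and ranged from 2 to 3 between the wildtype sets. All genes called in PKD + Salsalate against PKD numbered 81, with 39 to 226 when 1 kidney was left out (39 without PKD + Salsalate replicate 5, 226 without replicate 11), 199 by DESeq2, 146 by limma-voom and 195 with only these groups. The summed wildtype level of the 7, 78124 CPM, was 85813 CPM with mitochondrial genes left out of the totals. Of the 18 ratios, 0 were called with *mt-Nd1* as the denominator, 10 with the R libraries (8 of them against wildtype) and 0 with the others. The number ran from 0 to 9 with 1 kidney left out (9 without wildtype replicate 6, 8 without wildtype replicate 8).

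Directions turned in the following settings. With total counts, *mt-Co1* was 0.053 in PKD, and *mt-Nd2* 0.048 and *mt-Cytb* 0.0040 in PKD + Salsalate against wildtype. With limma-voom, *mt-Atp6* was -0.24 and *mt-Co3* -0.0028 in PKD + Salsalate against wildtype. With no filter, *mt-Nd2* was -0.020 between the wildtype sets. With the R libraries, *mt-Co1* was 0.11 in PKD, and *mt-Atp6* -0.19, *mt-Co3* -0.0096 and the *mt-Nd2* ratio -0.039 in PKD + Salsalate. With the other wildtype libraries, values in PKD were -0.29 for *mt-Nd5*, 0.036 for *mt-Nd3*, 0.27 for *mt-Rnr2*, 0.066 for *Angel2* and 0.074 for *Ssbp1*, and 0.057, 0.061, -0.079, 0.080 and -0.085 for the ratios of *mt-Nd1*, *mt-Nd2*, *mt-Co1*, *mt-Nd4* and *mt-Nd5*. In PKD + Salsalate they were -0.12 for *mt-Co1*, -0.25 for *mt-Nd5*, 0.32 for *mt-Rnr1*, 0.51 for *mt-Rnr2*, 0.040 for *Angel2*, 0.086 for *Ssbp1*, 0.023 for *Ndufa2* and 0.038 for *Ppargc1a*, and 0.11, 0.14 and -0.057 for the ratios of *mt-Nd1*, *mt-Nd4* and *mt-Nd5*. With 1 kidney left out, *mt-Nd6* between the wildtype sets ran from -0.17 to 0.0036, and *mt-Nd5* and *mt-Cytb* in PKD + Salsalate against PKD from -0.013 to 0.076 and from -0.0091 to 0.055, with the *mt-Nd5* ratio from -0.011 to 0.062. The cause was not tested.

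Replicate numbers did not pair the kidneys: correlations of same-numbered kidneys passed 0.1 in 3 of 8, 2 of 12 and 3 of 8 pairs. The replicate block called 4, 0 and 2 of the 7 in PKD against wildtype, PKD + Salsalate against PKD and PKD + Salsalate against wildtype. It moved the counts over all genes to 5839, 48 and 5392, turned *mt-Atp6* to -0.15 in the last, and added *mt-Nd2* (-0.22) in the first.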
